A study of Homo sapiens with 7 samples.

Results

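The comparison set cells sorted as NKX2-5+ against cells sorted as NKX2-5- on day 7 of cardiac differentiation. These are 2 of the 7 libraries of the series, chosen by their sort labels and day. Both fractions are labelled CD13+/ROR2+ and came from an H3 human embryonic stem cell (hESC) line in which eGFP reports NKX2-5 and mCherry reports alpha-MHC, the product of the cardiac myosin gene MYH6. The labels call the NKX2-5+ fraction a cardiac progenitor and give no cell type for the NKX2-5- fraction. They do not say if CD13 and ROR2 were gated on day 3 or day 7, and the reporter name carries a number that counts upward from sample to sample, which was read as 1 line. The other 5 libraries are undifferentiated hESC, the CD13+/ROR2+ and CD13-/ROR2- fractions of day 3, and the aMHC+ and aMHC- fractions of CD13+/ROR2+/NKX2-5+ cells on day 14. Each group is 1 library from 1 line, so that no difference given here has a replicate check, and no SD, test or p-value exists.

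NKX2-5 is a homeodomain transcription factor of heart precursors that acts with GATA4 and TBX5 on genes of contraction and of heart hormones. Heart muscle contracts when calcium released from the sarcoplasmic reticulum lets myosin thick filaments pull on actin thin filaments, which are anchored at Z-discs, and this work is paid for mostly by mitochondrial respiration. Mesoderm that reaches the developing heart also gives rise to epicardium, endothelium, smooth muscle and fibroblasts, and the stromal cells among these lay down collagens, proteoglycans and other extracellular matrix.

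Levels are given as scaled FPKM, which are the deposited values (fragments per transcript length and library total) divided by 0.687 in the NKX2-5+ library and by 0.926 in the NKX2-5- library. These factors make the median gene equal across the 7 libraries. Ratios are log2 of (scaled FPKM + 1) in NKX2-5+ cells over (scaled FPKM + 1) in NKX2-5- cells, a scale that understates the difference of low genes. A gene was called higher or lower in NKX2-5+ cells when the ratio was at least 2 in size, or 4-fold, with at least 5 scaled FPKM in the higher library. Of 21579 genes kept, 5666 reached that level in at least 1 of the day 7 libraries, and their ratios had a median of -0.04 with quartiles at -0.41 and 0.37. NKX2-5+ cells had 155 genes called higher, 2.74% of the 5666, and 186 called lower, 3.28%. Counts by list are over all listed genes unless the number that reached 5 scaled FPKM is given. A member below 5 in both libraries could not be called, so these shares are the measure for the members that reached 5. The 155 were 45.5% of all calls, a share that was 26.8% without scaling, since the scaling raised log2 ratios by 0.43, and less for low genes because of the added 1. Depth is known in relative terms only. Steps between low values put the NKX2-5+ library at 0.603 times the depth of the hESC library, the shallowest of those that could be read (0.603 to 3.1 times), while the steps of the NKX2-5- library were not sharp enough to be read. Values near 1 scaled FPKM or below therefore rest on few reads, above all in NKX2-5+ cells, and 65 of the 186 genes called lower stood below 1 there.

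**Figure D1:**
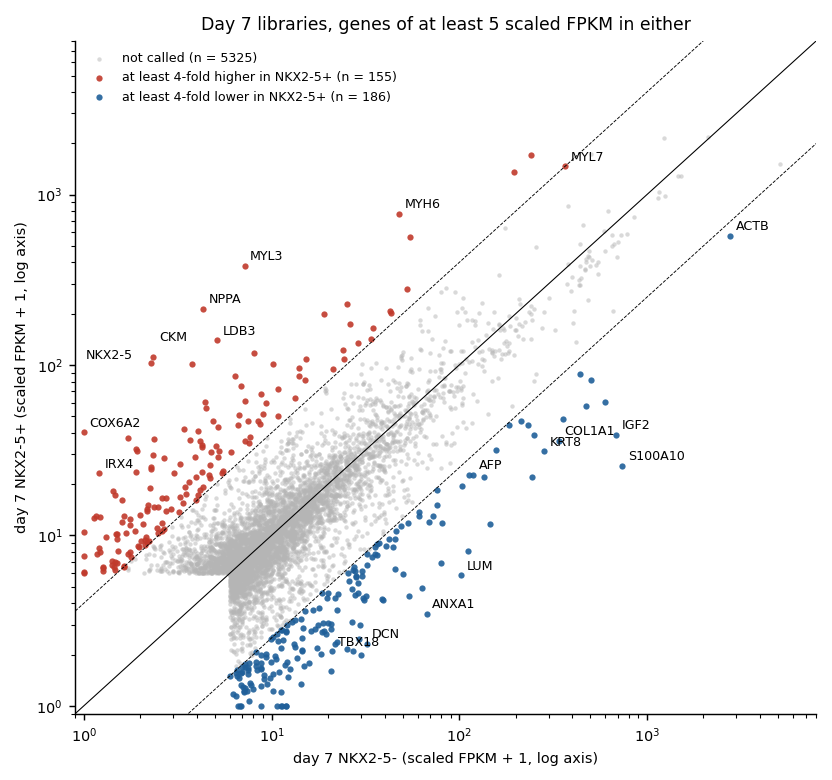
Scaled FPKM + 1 in NKX2-5+ cells (vertical, log axis) against NKX2-5- cells (horizontal, log axis) for the 5666 genes of at least 5 scaled FPKM in either library, 1 point per gene. The solid line marks equal levels and the dashed lines 4-fold, with 155 red points above them, led by muscle genes, and 186 blue points below them, among them S100A10, IGF2, LUM and ANXA1.

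Of the markers of this comparison, NKX2-5 is the gene the cells were sorted by, so its difference describes the gate. MYL3, LUM and AFP came with the comparison, which was chosen with earlier results of these data known. NKX2-5 itself stood at 102 scaled FPKM in NKX2-5+ cells against 1.27 in NKX2-5- cells, an 80.4-fold difference between 1 library and 1 other. MYL3, the ventricular and slow-muscle essential myosin light chain, had the highest ratio of the genes called, placeholder symbols such as LOC and LINC left out. It had 382 scaled FPKM in NKX2-5+ cells against 6.18 in NKX2-5- cells. LUM, the collagen-binding proteoglycan lumican, ran the other way with 4.83 scaled FPKM in NKX2-5+ cells against 101 in NKX2-5- cells, and AFP, the fetal plasma protein alpha-fetoprotein of yolk sac and liver, with 21.7 scaled FPKM in NKX2-5+ cells against 118 in NKX2-5- cells. In bulk RNA, fewer cells of a type and less RNA per cell cannot be told apart. Genes of the gated surface proteins were low on day 7. ANPEP, which encodes CD13, had 0.211 scaled FPKM in NKX2-5+ cells against 1.85 in NKX2-5- cells, and 10.9 in day 3 CD13+/ROR2+ cells. ROR2 had 5.18 scaled FPKM in NKX2-5+ cells against 3.66 in NKX2-5- cells, and 18.6 in day 3 CD13+/ROR2+ cells.

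Across the 7 libraries, the 4 markers did not share a time course. MYL3 was listed at 0 in hESC, stood at 0.127 and 1.3 scaled FPKM in the CD13+/ROR2+ and CD13-/ROR2- fractions of day 3, and at 211 in aMHC+ and 31.4 in aMHC- cells of day 14. NKX2-5, listed at 0 in hESC, had 59.9 scaled FPKM in aMHC+ and 70.1 in aMHC- cells of day 14, both of which were sorted as NKX2-5+. LUM stood at 6.63 scaled FPKM in the CD13+/ROR2+ fraction of day 3, at 0.0228 in the CD13-/ROR2- fraction, and at 5.23 in aMHC+ and 5.82 in aMHC- cells of day 14, so that the day 7 NKX2-5- library held its highest level. AFP was below 1 scaled FPKM in the 5 libraries of other days.

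Transcription factors of the heart were unequal in direction. Of 35 listed factors and cofactors, 23 reached 5 scaled FPKM, with 7 called higher in NKX2-5+ cells and 2 called lower, and the median ratio over the 35 was 0.58. The Iroquois homeobox genes IRX4, a factor of ventricular muscle, and IRX3, which patterns ventricular conduction, were both called, IRX4 with 22.1 scaled FPKM in NKX2-5+ cells against 0.202 in NKX2-5- cells and IRX3 with 10.7 scaled FPKM in NKX2-5+ cells against 1.06 in NKX2-5- cells. SMYD1, a muscle histone methyltransferase that also binds myosin, had 116 scaled FPKM in NKX2-5+ cells against 7.09 in NKX2-5- cells. The T-box repressor TBX2, known from the atrioventricular canal, had 9.67 scaled FPKM in NKX2-5+ cells against 0.869 in NKX2-5- cells, and TBX20, a T-box factor of developing myocardium, 206 scaled FPKM in NKX2-5+ cells against 41.9 in NKX2-5- cells. Both genes called lower mark other mesoderm: TBX18, a T-box factor of epicardium and sinus horn, had 1.1 scaled FPKM in NKX2-5+ cells against 20.1 in NKX2-5- cells, and the forkhead gene FOXC1, a factor of vessels and mesenchyme, 0.212 scaled FPKM in NKX2-5+ cells against 6.17 in NKX2-5- cells.

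The partners of NKX2-5 differed less. GATA4 had 74.6 scaled FPKM in NKX2-5+ cells against 50.9 in NKX2-5- cells, GATA6 had 14.9 scaled FPKM in NKX2-5+ cells against 8.55 in NKX2-5- cells, and neither was called. TBX5 had 67.9 scaled FPKM in NKX2-5+ cells against 23.2 in NKX2-5- cells and was not called either. HAND1, a basic helix-loop-helix factor of early left ventricle and extraembryonic mesoderm, was nearly level, with 33.7 scaled FPKM in NKX2-5+ cells against 32.2 in NKX2-5- cells, a direction that turned without scaling. ISL1, a factor of second heart field precursors, was low in both, with 2.46 scaled FPKM in NKX2-5+ cells against 2.23 in NKX2-5- cells, which turned likewise.

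Thick filament genes had the highest median of the heart lists, 2.25 over 15 genes, against a median of 0 over all genes kept. Of the 15, 9 reached 5 scaled FPKM, 9 were called higher and none lower. After MYL3 came MYH6, the alpha myosin heavy chain that mCherry reports, with 774 scaled FPKM in NKX2-5+ cells against 46.8 in NKX2-5- cells. MYBPC3, cardiac myosin-binding protein C, which braces the thick filament, had 74.6 scaled FPKM in NKX2-5+ cells against 5.86 in NKX2-5- cells, and the giant spring protein TTN 227 scaled FPKM in NKX2-5+ cells against 24.2 in NKX2-5- cells. The atrial light chains were abundant in both fractions, MYL4 with 1701 scaled FPKM in NKX2-5+ cells against 241 in NKX2-5- cells and MYL7 with 1472 scaled FPKM in NKX2-5+ cells against 366 in NKX2-5- cells. MYH7, the beta heavy chain, was low beside MYH6 at 21.1 scaled FPKM in NKX2-5+ cells against 2.97 in NKX2-5- cells, and reads of these near-identical genes could have been divided either way. MYL2, the regulatory light chain of mature ventricle, reached only 0.68 in NKX2-5+ cells and was listed at 0 in NKX2-5- cells.

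The thin filament was more mixed. Of 23 genes, 17 reached 5 scaled FPKM, 7 were called higher and 1 lower, with a median of 0.69. TNNC1, the calcium-binding subunit of troponin, had the highest ratio of the list, with 565 scaled FPKM in NKX2-5+ cells against 53.6 in NKX2-5- cells. Of the other troponins, TNNT2, which ties the complex to tropomyosin, had 1359.7 scaled FPKM in NKX2-5+ cells against 194 in NKX2-5- cells, and TNNI1, the inhibitory subunit of fetal muscle, 174 scaled FPKM in NKX2-5+ cells against 25.2 in NKX2-5- cells. TMOD1, which caps the slow-growing end of the actin filament, had 49.8 scaled FPKM in NKX2-5+ cells against 5.68 in NKX2-5- cells. Cardiac actin ACTC1 was high on both sides, with 1731 scaled FPKM in NKX2-5+ cells against 501 in NKX2-5- cells, and shares reads with its paralogs. TPM1, the main striated tropomyosin, hardly differed, with 2168 scaled FPKM in NKX2-5+ cells against 2120.3 in NKX2-5- cells, and turned direction without scaling, while the cytoplasmic tropomyosin TPM4 was the 1 gene of the list called lower, with 43.6 scaled FPKM in NKX2-5+ cells against 232 in NKX2-5- cells.

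Z-disc and costamere genes gave the largest number of calls of the heart lists, 16 higher and 2 lower of 42, with a median of 1.61. LDB3, the PDZ-LIM protein that holds the Z-disc together under load, had 139 scaled FPKM in NKX2-5+ cells against 4.14 in NKX2-5- cells. SMPX, a small muscle protein of the costamere, had 85.5 scaled FPKM in NKX2-5+ cells against 5.38 in NKX2-5- cells, the small heat shock protein HSPB7 198 scaled FPKM in NKX2-5+ cells against 18.1 in NKX2-5- cells, and XIRP1, an actin-binding repeat protein of growing myofibrils, 45.8 scaled FPKM in NKX2-5+ cells against 6.46 in NKX2-5- cells. TCAP, which clamps titin at the Z-disc, had 11.7 scaled FPKM in NKX2-5+ cells against 0.134 in NKX2-5- cells. ACTN2, the actin cross-linker that defines the Z-disc, was counted with the thin filament list and not here. It had 49.4 scaled FPKM in NKX2-5+ cells against 9.78 in NKX2-5- cells. The LIM genes PDLIM3, with 6.5 scaled FPKM in NKX2-5+ cells against 33.4 in NKX2-5- cells, and FHL1, with 8.56 scaled FPKM in NKX2-5+ cells against 44.4 in NKX2-5- cells, were the members called lower. Over the 3 sarcomere lists together, 32 of 80 genes were called higher and 3 lower, with a median of 1.59.

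Several genes called higher are known targets of the muscle factors MEF2 and SRF, so their upstream sequences were searched for binding motifs. RefSeq promoter windows of build GRCh38.p14, 250 bases before each start, were found by symbol for 102 of the 155 genes called higher, for 125 of the 186 called lower, and for 4260 of the 5666. The degenerate MEF2 box was present in 11 of the 102 windows (10.8%), in 2 of the 125 (1.6%), and in 1.53% of the 4260 and 2.9% of all 27305 windows. The CArG box, the SRF motif, was present in 7 of the 102 (6.86%), 8 of the 125 (6.4%), 1.31% of the 4260 and 1.14% of all windows. Among the genes with a CArG box, LDB3, MYL7, MYOM1 and FHL2 were called higher, while ACTG2, ACTG1, TPM4, FLNA and CD34 were called lower. The GATA motif AGATAA was present in 12.7% of the windows of genes called higher, 4% of those called lower, 4.13% of the 4260 and 9.37% of all windows. The NKX2-5 element TNAAGTG was present in 10.8%, 8%, 5.96% and 8.84% of the same sets in that order, and the TEAD motif CATTCC in 15.7%, 10.4%, 9.69% and 11.9%. The TATA box TATAAA was present in 14.7%, 11.2%, 5.61% and 11.1%, and the HNF1 half-site GTTAAC in 1.96%, 0.8%, 1.71% and 2.28%. Both strands were searched, a MEF2 or CArG box can contain the letters of the TATA box, and a match is a description of letters, not of binding.

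Printed below are the 250 bases before the start of 3 genes called higher and 2 called lower, chosen after the search to show where these motifs lie. Capitals mark motif letters on either strand. The windows lie at chr10:86668261-86668510 on the plus strand (LDB3), chrX:21758117-21758366 on the minus strand (SMPX), chr11:47352703-47352952 on the minus strand (MYBPC3), chr2:73892758-73893007 on the plus strand (ACTG2, the enteric smooth muscle actin, with 0.223 scaled FPKM in NKX2-5+ cells against 6.37 in NKX2-5- cells) and chr4:73435971-73436220 on the plus strand (AFP), and each reads 5′ to 3′ along its gene.
LDB3: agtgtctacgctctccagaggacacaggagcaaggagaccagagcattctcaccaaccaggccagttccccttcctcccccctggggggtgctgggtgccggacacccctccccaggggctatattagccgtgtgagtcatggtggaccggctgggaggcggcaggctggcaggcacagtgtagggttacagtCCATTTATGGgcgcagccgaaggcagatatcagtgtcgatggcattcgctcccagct
SMPX: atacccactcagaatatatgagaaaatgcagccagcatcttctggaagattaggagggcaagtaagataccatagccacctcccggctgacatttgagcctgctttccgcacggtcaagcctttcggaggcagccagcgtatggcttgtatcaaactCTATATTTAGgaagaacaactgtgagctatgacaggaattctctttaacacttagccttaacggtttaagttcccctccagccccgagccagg
MYBPC3: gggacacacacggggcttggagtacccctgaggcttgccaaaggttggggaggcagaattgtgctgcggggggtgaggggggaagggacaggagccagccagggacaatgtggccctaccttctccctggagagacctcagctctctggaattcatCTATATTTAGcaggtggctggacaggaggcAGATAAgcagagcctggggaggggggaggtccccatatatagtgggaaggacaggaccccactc
ACTG2: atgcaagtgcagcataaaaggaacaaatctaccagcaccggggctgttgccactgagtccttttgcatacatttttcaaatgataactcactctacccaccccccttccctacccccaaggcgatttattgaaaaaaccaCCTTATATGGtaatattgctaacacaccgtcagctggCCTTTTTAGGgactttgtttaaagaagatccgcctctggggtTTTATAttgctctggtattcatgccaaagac
AFP: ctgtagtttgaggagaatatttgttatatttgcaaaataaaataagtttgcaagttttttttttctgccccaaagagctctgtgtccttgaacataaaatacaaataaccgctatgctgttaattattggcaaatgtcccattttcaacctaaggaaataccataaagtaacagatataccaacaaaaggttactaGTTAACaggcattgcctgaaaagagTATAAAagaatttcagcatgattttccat
The LDB3 capitals are a CArG box from base -57 to -48 before the start. In SMPX (-93 to -84) and MYBPC3 (-94 to -85) they are MEF2 boxes, and MYBPC3 also has a GATA motif at -64 to -59. ACTG2 has CArG boxes at -110 to -101 and -73 to -64 with a TATA box on the opposite strand at -31 to -26. AFP has an HNF1 half-site, the letters read by the hepatocyte factor HNF1, at -54 to -49 and a TATA box at -29 to -24.

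Genes of calcium cycling had ratios above 0 in 22 of 28 cases, with 10 called higher, 1 lower and a median of 1.65. RYR2, the release channel of the sarcoplasmic reticulum, had 41.2 scaled FPKM in NKX2-5+ cells against 2.4 in NKX2-5- cells. Its luminal partners TRDN and HRC, which couple the channel to stored calcium, had 35.2 against 2.68 and 18 against 1.26 scaled FPKM in NKX2-5+ against NKX2-5- cells. The calcium pump ATP2A2 had 165 scaled FPKM in NKX2-5+ cells against 33.6 in NKX2-5- cells, its inhibitor PLN 85.5 scaled FPKM in NKX2-5+ cells against 13 in NKX2-5- cells, and the sodium-calcium exchanger SLC8A1 108 scaled FPKM in NKX2-5+ cells against 14.2 in NKX2-5- cells. PPP1R14C, an inhibitor of protein phosphatase 1, had 35.8 scaled FPKM in NKX2-5+ cells against 1.38 in NKX2-5- cells. The second pump inhibitor, SLN, known from atrial and skeletal muscle, went against the list with 3.48 scaled FPKM in NKX2-5+ cells against 26.8 in NKX2-5- cells.

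Among 27 channel genes of sodium, potassium and pacemaker currents, 7 reached 5 scaled FPKM and 3 were called higher, none lower. These were KCNIP2, the subunit of the transient outward potassium channel, with 30.2 scaled FPKM in NKX2-5+ cells against 0.922 in NKX2-5- cells, KCNH2, the channel of the rapid delayed rectifier, with 44 scaled FPKM in NKX2-5+ cells against 7.73 in NKX2-5- cells, and the membrane protein POPDC2, which binds cyclic AMP, with 99.9 scaled FPKM in NKX2-5+ cells against 9.21 in NKX2-5- cells. HCN4, the pacemaker channel, was not called, with 57.3 scaled FPKM in NKX2-5+ cells against 38.1 in NKX2-5- cells. The list's median was 0.02, and -0.08 without scaling. Of 19 genes of the intercalated disc, where muscle cells join, 3 were called higher and none lower. They were POPDC2, XIRP1 and CTNNA3, a catenin of heart muscle with 13.3 scaled FPKM in NKX2-5+ cells against 1.92 in NKX2-5- cells, and the median was 0.00, and -0.31 without scaling.

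Of 15 natriuretic peptide and secreted factor genes, NPPA and CORIN were called higher and none lower, with a median of 0.07 that was -0.19 without scaling. NPPA, the atrial natriuretic peptide, had 213 scaled FPKM in NKX2-5+ cells against 3.31 in NKX2-5- cells, and CORIN, the protease that cuts it to its active form, 24.3 scaled FPKM in NKX2-5+ cells against 1.29 in NKX2-5- cells. NPPB, the B-type peptide, was high in both fractions, with 182 scaled FPKM in NKX2-5+ cells against 109 in NKX2-5- cells. The receptors NPR1 and NPR3 were low on both sides, NPR1 with 0.0718 scaled FPKM in NKX2-5+ cells against 1.77 in NKX2-5- cells and NPR3 with 0.0238 scaled FPKM in NKX2-5+ cells against 0.548 in NKX2-5- cells. PTN, a heparin-binding growth factor, had 24 scaled FPKM in NKX2-5+ cells against 66.3 in NKX2-5- cells and was not called.

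Energy genes leaned toward NKX2-5+ cells as whole groups while few were called. CKM, the muscle creatine kinase, had 110.2 scaled FPKM in NKX2-5+ cells against 1.35 in NKX2-5- cells, its mitochondrial partner CKMT2 8.78 scaled FPKM in NKX2-5+ cells against 0.314 in NKX2-5- cells, and MB, the oxygen-binding myoglobin, 36.1 scaled FPKM in NKX2-5+ cells against 0.71 in NKX2-5- cells. These were the 3 calls among 13 genes of creatine, adenylate kinase and oxygen binding, none being lower. COX6A2, the heart and skeletal muscle form of a cytochrome c oxidase subunit, had 39.4 in NKX2-5+ cells and was listed at 0 in NKX2-5- cells, whereas its widespread counterpart COX6A1 had 193 scaled FPKM in NKX2-5+ cells against 72.9 in NKX2-5- cells.

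Taken by complex, 35 of 37 complex I genes, 13 of 15 complex IV genes and 15 of 16 ATP synthase genes had a ratio above 0, with medians of 0.79, 1.09 and 0.93. Of the citric acid cycle, 21 of 22 genes did, with a median of 1.25. Only COX6A2 and ATP5G1, an ATP synthase membrane ring gene with 277 scaled FPKM in NKX2-5+ cells against 51.9 in NKX2-5- cells, were called among these 90 genes, and 84 of the 90 were above 0, where 47.5% of all genes of at least 5 scaled FPKM were. Without scaling the medians were lower by about the common shift, at 0.37 for complex I, 0.67 for complex IV, 0.5 for ATP synthase and 0.83 for the citric acid cycle. SDHA, the catalytic subunit of succinate dehydrogenase, had 29 scaled FPKM in NKX2-5+ cells against 7.32 in NKX2-5- cells, and ATP5B, the catalytic beta subunit, 635 scaled FPKM in NKX2-5+ cells against 175 in NKX2-5- cells.

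Genes of fatty acid use were above 0 in 32 of 38 cases, with a median of 0.87, 4 called higher and none lower. The 4 calls became 0 with a pseudocount of 5 or a minimum of 15 FPKM, and 2 without scaling. The regulators ESRRG and PPARGC1A, which switch on mitochondrial genes, had 9.36 against 0.679 and 13.7 against 1.47 scaled FPKM in NKX2-5+ against NKX2-5- cells. CPT1B, the muscle gate for fatty acids into mitochondria, had 10.0 scaled FPKM in NKX2-5+ cells against 1.46 in NKX2-5- cells, and ACSL1, which activates them, 9.67 scaled FPKM in NKX2-5+ cells against 1.6 in NKX2-5- cells. Glycolysis had a median of 0.54 over 28 genes. The muscle enolase ENO3 had 60.6 scaled FPKM in NKX2-5+ cells against 6.21 in NKX2-5- cells and the muscle mutase PGAM2 25.2 scaled FPKM in NKX2-5+ cells against 2.27 in NKX2-5- cells, both called higher. SLC2A1, a widespread glucose importer, was called lower with 8.05 scaled FPKM in NKX2-5+ cells against 36.5 in NKX2-5- cells. Cholesterol synthesis had no call among 23 genes and a median of -0.41.

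**Figure D2:**
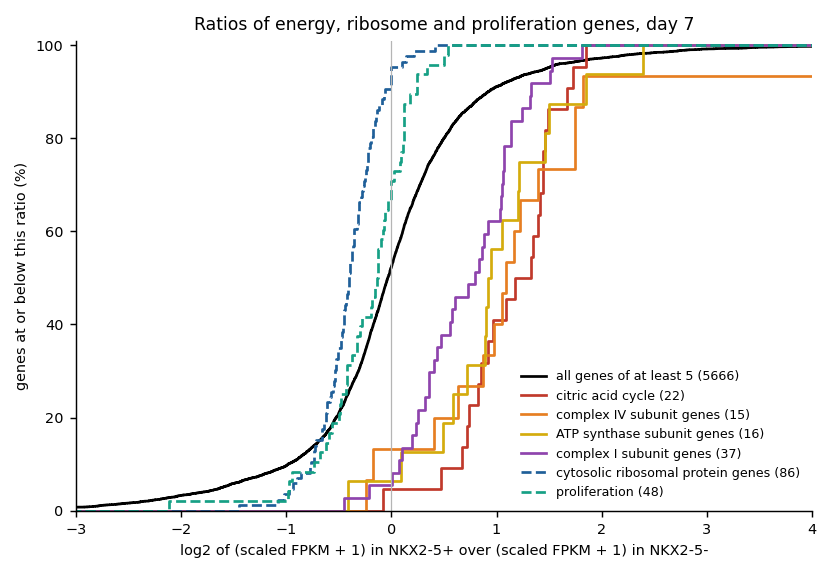
Cumulative share of genes (vertical, %) at or below each log2 ratio of NKX2-5+ over NKX2-5- (horizontal) for energy lists (solid colours), cytosolic ribosomal protein and proliferation genes (dashed) and all 5666 genes of at least 5 scaled FPKM (black). The curves of the citric acid cycle, complex IV, ATP synthase and complex I lie to the right of the black curve, with medians from 0.79 to 1.25, and the ribosomal curve to its left, with a median of -0.40.

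Extracellular matrix accounted for many genes lower in NKX2-5+ cells. The small proteoglycans that bind collagen were led by LUM, with DCN, decorin, at 1.31 scaled FPKM in NKX2-5+ cells against 31.1 in NKX2-5- cells and BGN, biglycan, at 0.992 scaled FPKM in NKX2-5+ cells against 28.9 in NKX2-5- cells, and of 13 listed, 5 reached 5 scaled FPKM and 4 were called lower. Among 43 collagen genes, 15 reached 5 scaled FPKM, with 5 called lower and 2 higher, and the median over the 43 was -0.29. The fibril-forming chains COL1A1, with 35 scaled FPKM in NKX2-5+ cells against 340.3 in NKX2-5- cells, and COL3A1, with 21 scaled FPKM in NKX2-5+ cells against 242 in NKX2-5- cells, stood beside COL1A2 and COL6A3, which had 18.6 against 103 and 2.09 against 25.9 scaled FPKM in NKX2-5+ against NKX2-5- cells. COL2A1, the cartilage collagen that early heart valves also express, went the other way with 201 scaled FPKM in NKX2-5+ cells against 42.4 in NKX2-5- cells, as did COL22A1, a collagen of muscle-tendon junctions, with 8.25 scaled FPKM in NKX2-5+ cells against 1.21 in NKX2-5- cells. Neither was called higher without scaling.

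Enzymes that mature collagen were called lower in 4 of 25 cases and higher in none. PCOLCE, which helps to cleave the procollagen tail, had 3.15 scaled FPKM in NKX2-5+ cells against 38.3 in NKX2-5- cells, and LOXL1, a cross-linking oxidase, 5.38 scaled FPKM in NKX2-5+ cells against 44.7 in NKX2-5- cells. Of 45 matricellular and elastic fibre genes, 9 were called lower and none higher. SPARC, a collagen-binding matrix protein, had 47.2 scaled FPKM in NKX2-5+ cells against 355 in NKX2-5- cells, the microfibril protein MFAP4 4.93 scaled FPKM in NKX2-5+ cells against 49.1 in NKX2-5- cells, and fibrillin-1, FBN1, 0.578 scaled FPKM in NKX2-5+ cells against 9.92 in NKX2-5- cells. The related fibrillin FBN2 was the highest ratio of that list, with 70.8 scaled FPKM in NKX2-5+ cells against 18.5 in NKX2-5- cells, though not called. Among 36 proteases and inhibitors 5 were called lower and none higher, led by MMP2, a gelatinase, with 5.87 scaled FPKM in NKX2-5+ cells against 79.2 in NKX2-5- cells, and its activator MMP14 had 1.85 scaled FPKM in NKX2-5+ cells against 13.7 in NKX2-5- cells.

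Among laminins, which belong to the basement membrane that surrounds muscle fibres, 2 genes went the other way. LAMA4 had 23.5 scaled FPKM in NKX2-5+ cells against 1.28 in NKX2-5- cells and LAMA2, the merosin chain of muscle, 8.12 scaled FPKM in NKX2-5+ cells against 1.17 in NKX2-5- cells, both called higher, whereas LAMC1, the gamma chain shared by most laminins, had 26.6 scaled FPKM in NKX2-5+ cells against 56.1 in NKX2-5- cells and was not called. The median over 12 laminin genes was -0.28, with 9 ratios below 0 and 3 above. Of 26 integrins, 8 reached 5 scaled FPKM and 2 were called, both lower. ITGA1, a collagen receptor, had 1.17 scaled FPKM in NKX2-5+ cells against 24.2 in NKX2-5- cells and ITGA9 0.63 scaled FPKM in NKX2-5+ cells against 6.46 in NKX2-5- cells. VCAM1, a cell adhesion ligand of early myocardium, was called higher, with 17.2 scaled FPKM in NKX2-5+ cells against 0.425 in NKX2-5- cells.

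**Figure D3:**
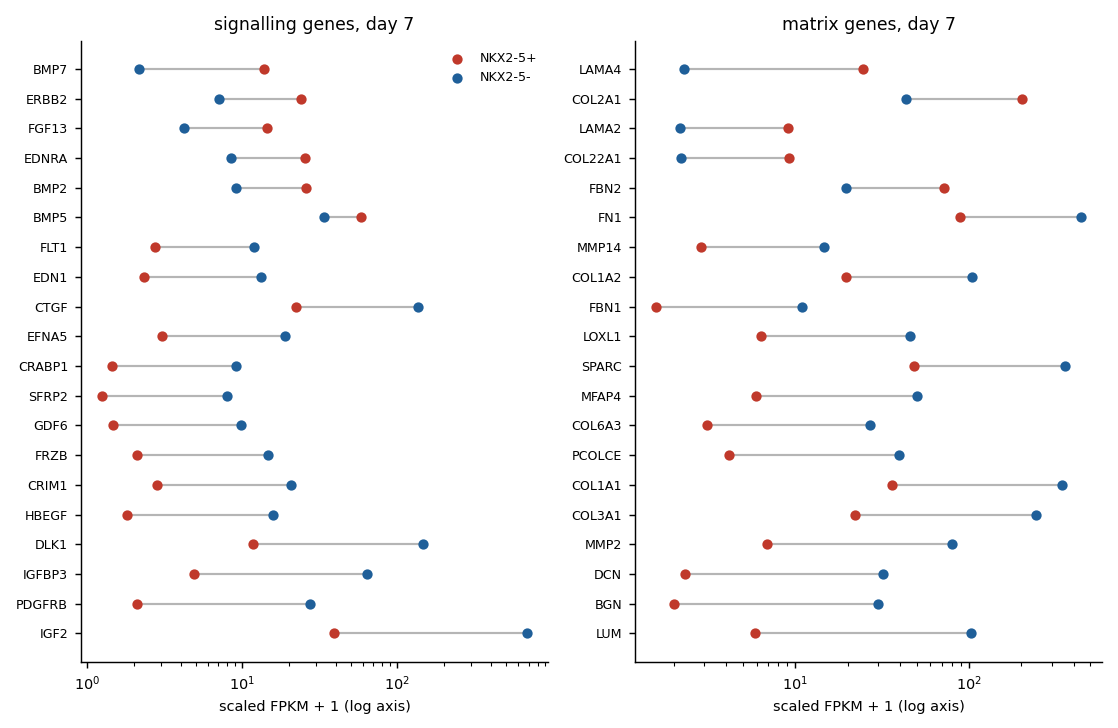
Scaled FPKM + 1 (log axis) of 20 signalling genes (left) and 20 matrix genes (right) in NKX2-5+ (red) and NKX2-5- (blue) cells of day 7, 1 library each, ordered by ratio. LAMA4 and BMP7 head the genes higher in NKX2-5+ cells, and LUM and IGF2 lie at the far end, with 4.83 against 101 and 37.9 against 685 scaled FPKM in NKX2-5+ against NKX2-5- cells.

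Several growth factor genes and receptors were lower in NKX2-5+ cells. IGF2, a fetal growth factor made from the paternal allele, had 37.9 scaled FPKM in NKX2-5+ cells against 685 in NKX2-5- cells, and IGFBP3, which binds it outside the cell, 3.91 scaled FPKM in NKX2-5+ cells against 62.7 in NKX2-5- cells. These were the calls among 22 genes of the insulin-like growth factor list, of which 12 reached 5 scaled FPKM, and the median of the list was -0.43. PDGFRB, the receptor of pericytes and mesenchyme, had 1.09 scaled FPKM in NKX2-5+ cells against 26.2 in NKX2-5- cells, HBEGF, a ligand of the EGF receptor, 0.795 scaled FPKM in NKX2-5+ cells against 14.8 in NKX2-5- cells, and FLT1, a VEGF receptor, 1.74 scaled FPKM in NKX2-5+ cells against 11 in NKX2-5- cells. These were all 3 calls among 37 genes of these families, of which 13 reached 5 scaled FPKM. ERBB2, the neuregulin co-receptor of heart muscle, had 23.1 scaled FPKM in NKX2-5+ cells against 6.07 in NKX2-5- cells and was not called.

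Of 50 genes of BMP and TGF-beta signalling, 23 reached 5 scaled FPKM. Only BMP7 was called higher, with 12.8 scaled FPKM in NKX2-5+ cells against 1.18 in NKX2-5- cells, while GDF6, a BMP-like ligand, had 0.462 scaled FPKM in NKX2-5+ cells against 8.85 in NKX2-5- cells and LEFTY2, a NODAL inhibitor that shares reads with LEFTY1, 0.447 scaled FPKM in NKX2-5+ cells against 5.69 in NKX2-5- cells, both called lower. BMP5 had 57.2 scaled FPKM in NKX2-5+ cells against 32.6 in NKX2-5- cells. For WNT, 20 of 62 genes reached 5 scaled FPKM and 2 were called, both lower, where 3.28% of all 5666 genes were called lower. They were the secreted antagonists FRZB, with 1.09 scaled FPKM in NKX2-5+ cells against 13.5 in NKX2-5- cells, and SFRP2, with 0.247 scaled FPKM in NKX2-5+ cells against 6.99 in NKX2-5- cells. DKK3, of the same list, had its highest ratio, 1.52, and was not called. The Notch list had a median of -0.82 over 24 genes, of which 11 reached 5 scaled FPKM, with 3 called lower. DLK1, a non-canonical ligand that is also imprinted, had 10.7 scaled FPKM in NKX2-5+ cells against 145 in NKX2-5- cells, and the targets HEYL and HES4 had 0.645 against 7.75 and 1.77 against 10.4 scaled FPKM in NKX2-5+ against NKX2-5- cells.

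In the retinoic acid list, 11 of 28 genes reached 5 scaled FPKM. RXRG, a retinoid receptor, was called higher with 5.56 scaled FPKM in NKX2-5+ cells against 0.631 in NKX2-5- cells and CRABP1, which binds retinoic acid in the cytoplasm, lower with 0.445 scaled FPKM in NKX2-5+ cells against 8.16 in NKX2-5- cells. For fibroblast growth factor signalling, 13 of 42 genes reached 5 scaled FPKM and 2 were called, both lower, where 3.28% of all 5666 genes were called lower. They were FLRT3 and the feedback inhibitor SPRY1, which had 2.12 against 11.9 and 0.58 against 5.99 scaled FPKM in NKX2-5+ against NKX2-5- cells. Hedgehog genes gave none of 16, of which 2 reached 5 scaled FPKM. Of 26 chemokine and migration genes, 10 reached 5 scaled FPKM and 3 were called lower. Among them, endothelin EDN1 had 1.31 scaled FPKM in NKX2-5+ cells against 12.2 in NKX2-5- cells, and CCL2, a monocyte attractant, was listed at 0 in NKX2-5+ cells and had 10.3 in NKX2-5- cells. A list that joins Hippo pathway members, YAP partners and targets had a median of -0.54 over 21 genes, 19 of them below 0. Of the 21, 17 reached 5 scaled FPKM and 3 were called lower, among them the secreted targets CTGF and CYR61. These 2 had 21.2 against 135 and 8.55 against 41.5 scaled FPKM in NKX2-5+ against NKX2-5- cells. Of 63 guidance genes, 23 reached 5 scaled FPKM. EFNA5, an ephrin, was the 1 called, lower with 2.05 scaled FPKM in NKX2-5+ cells against 17.9 in NKX2-5- cells.

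Of 47 actin, myosin and adhesion genes of the cytoskeleton, 44 reached 5 scaled FPKM, 8 were called lower in NKX2-5+ cells and none higher. Called or not, 41 of the 47 had a ratio under 0 and 6 above 0, with a median of -0.996. ACTB, the cytoplasmic beta actin, had 573 scaled FPKM in NKX2-5+ cells against 2784 in NKX2-5- cells, and ACTG1, the gamma actin, 81 scaled FPKM in NKX2-5+ cells against 502 in NKX2-5- cells, though actin paralogs share reads. TMSB4X, which holds actin monomers, had 38 scaled FPKM in NKX2-5+ cells against 249 in NKX2-5- cells, and TAGLN2, an actin-bundling protein, 3.42 scaled FPKM in NKX2-5+ cells against 53.1 in NKX2-5- cells. ACTB was also the 1 called gene of 18 housekeeping genes, whose median was -0.10, and the glycolytic enzyme GAPDH had 2139.9 scaled FPKM in NKX2-5+ cells against 1236 in NKX2-5- cells.

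In each of the S100, annexin, galectin and keratin families, 1 or 2 members were called lower and none higher. S100A10, which partners annexin A2 at the membrane, had the lowest ratio of the genes called, placeholder symbols left out. The ratio was -4.85, with 24.6 scaled FPKM in NKX2-5+ cells against 739 in NKX2-5- cells. ANXA2 itself had 45.7 scaled FPKM in NKX2-5+ cells against 214 in NKX2-5- cells and ANXA1 2.46 scaled FPKM in NKX2-5+ cells against 66.2 in NKX2-5- cells, while ANXA6, of the same 12-gene family, had 34.1 scaled FPKM in NKX2-5+ cells against 16.4 in NKX2-5- cells and was not called. S100A11 had 59.3 scaled FPKM in NKX2-5+ cells against 594 in NKX2-5- cells. LGALS1, the main galectin of mesenchyme, had 7.09 scaled FPKM in NKX2-5+ cells against 111 in NKX2-5- cells. LGALS3, another galectin, was not called, with 8.96 scaled FPKM in NKX2-5+ cells against 4.86 in NKX2-5- cells. The simple-epithelium pair KRT8 and KRT18 had 30.1 against 282 and 56.5 against 470.1 scaled FPKM in NKX2-5+ against NKX2-5- cells, and 49 and 41 of 55 keratin genes were listed at 0 in the NKX2-5+ and NKX2-5- libraries. CLDN6, a claudin of early epithelia, was called higher with 36.9 scaled FPKM in NKX2-5+ cells against 6.71 in NKX2-5- cells.

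Markers of other cell types were measured beside these results, and their part in them was not tested. Fibroblast and stromal markers were called lower in 10 of 30 cases and higher in none, with a median of -1.64, and summed to 283 scaled FPKM in NKX2-5+ cells and 1484 in NKX2-5- cells, with 4 of the 30 listed at 0 in NKX2-5+ cells and 2 in NKX2-5- cells. This list holds LUM, DCN, PDGFRB and the fibrillar collagens named above. Epicardial markers were called lower in 6 of 18 cases and summed to 117 and 870.0 in NKX2-5+ and NKX2-5- cells, a sum made mostly of KRT8 and KRT18. TCF21, an epicardial and fibroblast factor, had 0.549 scaled FPKM in NKX2-5+ cells against 5.87 in NKX2-5- cells, and BNC1 0.703 scaled FPKM in NKX2-5+ cells against 7.22 in NKX2-5- cells. WT1, the defining epicardial factor, did not reach 5 scaled FPKM and was not called, with 0.168 scaled FPKM in NKX2-5+ cells against 4.2 in NKX2-5- cells. Smooth muscle and pericyte markers were called lower in 5 of 25 cases and higher in none, with 18 ratios below 0 and a median of -0.32. They summed to 3943 in NKX2-5+ and 3714 in NKX2-5- cells, sums led by TPM1, which heart muscle also expresses. CALD1, an actin-binding protein, was among these 5 with 10.8 scaled FPKM in NKX2-5+ cells against 79.6 in NKX2-5- cells, whereas ACTA2, smooth muscle actin and a paralog of ACTC1, was not called, with 663 scaled FPKM in NKX2-5+ cells against 454 in NKX2-5- cells.

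Of 30 endothelial markers, 8 reached 5 scaled FPKM, 2 were called lower, FLT1 and PLVAP, and none higher. In the shallow NKX2-5+ library 5 of the 30 were listed at 0, against 0 in the NKX2-5- library. At least 1 scaled FPKM was reached by 9 of the 30 in NKX2-5+ and by 20 in NKX2-5- cells. All 30 ratios were below 0, with a median of -0.83 and sums of 34.2 scaled FPKM in NKX2-5+ and 106 in NKX2-5- cells. PLVAP, the diaphragm protein of vessel pores, had 2.76 scaled FPKM in NKX2-5+ cells against 16.9 in NKX2-5- cells, CDH5, the junction cadherin of endothelium, 1.47 scaled FPKM in NKX2-5+ cells against 6.66 in NKX2-5- cells, and KDR, a VEGF receptor also found in mesoderm, 8.28 scaled FPKM in NKX2-5+ cells against 10.0 in NKX2-5- cells. Of 26 blood markers 17 were listed at 0 in NKX2-5+ and 13 in NKX2-5- cells, including GATA1, PTPRC and the embryonic globin HBZ in both, and CD34, shared with endothelium, had 0.809 scaled FPKM in NKX2-5+ cells against 7.29 in NKX2-5- cells. Neural and neural crest markers were called lower in 3 of 26 cases, summing to 47.1 in NKX2-5+ and 65.6 in NKX2-5- cells with 12 and 6 listed at 0. The 3 were SOX10, listed at 0 in NKX2-5+ cells and at 5.6 in NKX2-5- cells, TUBB3 and LHX2. TUBB3 and LHX2 had 0.816 against 8.9 and 1.97 against 11.2 scaled FPKM in NKX2-5+ against NKX2-5- cells. PAX6 was not called, with 0.184 scaled FPKM in NKX2-5+ cells against 0.318 in NKX2-5- cells.

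Plasma proteins of liver and yolk sac were present in both fractions, at a sum of 275 scaled FPKM in NKX2-5+ and 717 in NKX2-5- cells. Of 38 genes, 34 had a ratio below 0, with a median of -1.20, 6 called lower and none higher. Beside AFP stood the apolipoproteins APOA1, with 5.69 scaled FPKM in NKX2-5+ cells against 31.4 in NKX2-5- cells, and APOC3, with 6.66 scaled FPKM in NKX2-5+ cells against 35.5 in NKX2-5- cells, and the antitrypsin gene SERPINA1, with 4.72 scaled FPKM in NKX2-5+ cells against 27.3 in NKX2-5- cells. Of 20 endoderm transcription factors, 3 reached 5 scaled FPKM. FOXA2 and HNF4A, which define endoderm, were listed at 0 in NKX2-5+ cells and had 0.234 and 0.599 in NKX2-5- cells, and 11 of the 20 factors were listed at 0 in NKX2-5+ and 2 in NKX2-5- cells. PROX1, a homeobox factor of liver, lymphatics and heart muscle, was the 1 factor of this list called, higher with 16.4 scaled FPKM in NKX2-5+ cells against 2.5 in NKX2-5- cells. The others that reached 5 were GATA6, given above among the heart factors, and TCF7L1, a WNT pathway repressor, with 3.63 scaled FPKM in NKX2-5+ cells against 8.01 in NKX2-5- cells. HOX genes were low, with 34 and 26 of 39 listed at 0 in NKX2-5+ and NKX2-5- cells and none at 5 scaled FPKM. Pluripotency genes gave no call among 22, with 12 ratios below 0 and 7 above. NANOG had 0.0979 scaled FPKM in NKX2-5+ cells against 0.037 in NKX2-5- cells, and POU5F1 had 0.22 in NKX2-5+ cells and was listed at 0 in NKX2-5- cells. SOX2 was listed at 0 in NKX2-5+ cells and had 0.649 in NKX2-5- cells, and LIN28B had 2.32 scaled FPKM in NKX2-5+ cells against 7.87 in NKX2-5- cells.

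Proliferation genes had a median of -0.14 over 48 genes and no call, and cytosolic ribosomal protein genes -0.40 over 86 with none called and 78 below 0. Immediate early and stress genes had a median of -0.88 over 28 genes, with 4 called lower, among them KLF6, a zinc finger factor of injury responses, with 3.27 scaled FPKM in NKX2-5+ cells against 20.7 in NKX2-5- cells, and the AP-1 subunit JUNB with 1.54 scaled FPKM in NKX2-5+ cells against 9.21 in NKX2-5- cells. Of 26 interferon and MHC genes none was called, with a median of -0.52. RBM38, an RNA-binding protein of muscle differentiation, was the 1 call of 19 splicing factors, with 30.3 scaled FPKM in NKX2-5+ cells against 4.22 in NKX2-5- cells. PTBP1, a repressor of muscle exons, had 16.2 scaled FPKM in NKX2-5+ cells against 52.2 in NKX2-5- cells and was not called. The median of the splicing list was 0.33, and -0.03 without scaling.

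**Figure D4:**
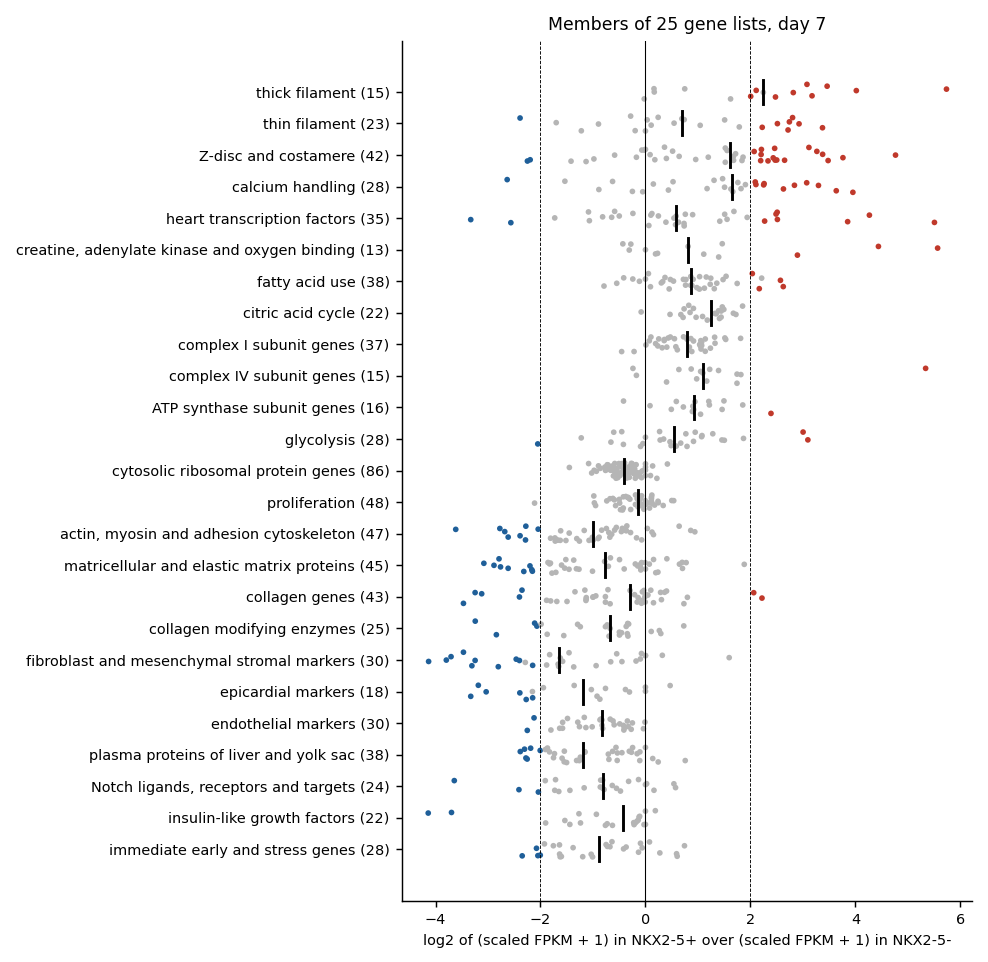
Log2 ratio of NKX2-5+ over NKX2-5- (horizontal) for the members of selected gene lists, 1 point per gene, with the list median as a black bar and the number of genes in brackets. Dashed lines mark 4-fold, red and blue points are genes called higher and lower, and the medians run from 2.25 for the thick filament to -1.64 for fibroblast and stromal markers.

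The genes called on day 7 were then followed through the other libraries. The 155 genes higher in NKX2-5+ cells had a median level of 22.2 scaled FPKM there and 2.22 in NKX2-5- cells. In hESC and in the CD13+/ROR2+ and CD13-/ROR2- fractions of day 3 it was 0.542, 0.546 and 0.574, and on day 14 it was 8.63 in aMHC+ and 4.38 in aMHC- cells. The 186 genes called lower had medians of 1.76 in NKX2-5+ and 17.4 in NKX2-5- cells, 1.24 in hESC, 2.12 and 1.51 in the CD13+/ROR2+ and CD13-/ROR2- fractions of day 3, and 7.18 in aMHC+ and 8.76 in aMHC- cells of day 14. The levels of the day 7 libraries chose these genes, so their medians on that day describe the choice.

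Single genes departed from these medians. IRX4, at 22.1 scaled FPKM in day 7 NKX2-5+ cells, had 0.453 in aMHC+ cells of day 14 and was listed at 0 in aMHC- cells. IGF2 had 241 in aMHC+ and 274 in aMHC- cells of day 14, both between its day 7 levels. S100A10 had 324 in aMHC+ and 439.6 in aMHC- cells of day 14, and 28.2 in hESC, close to the 24.6 of day 7 NKX2-5+ cells. DCN was low on day 14, with 1.86 in aMHC+ and 1.18 in aMHC- cells. PLA2G2A, a secreted phospholipase, was listed at 0 in day 7 NKX2-5+ cells, had 10.9 in NKX2-5- cells and 30.3 in day 3 CD13-/ROR2- cells.

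**Figure D5:**
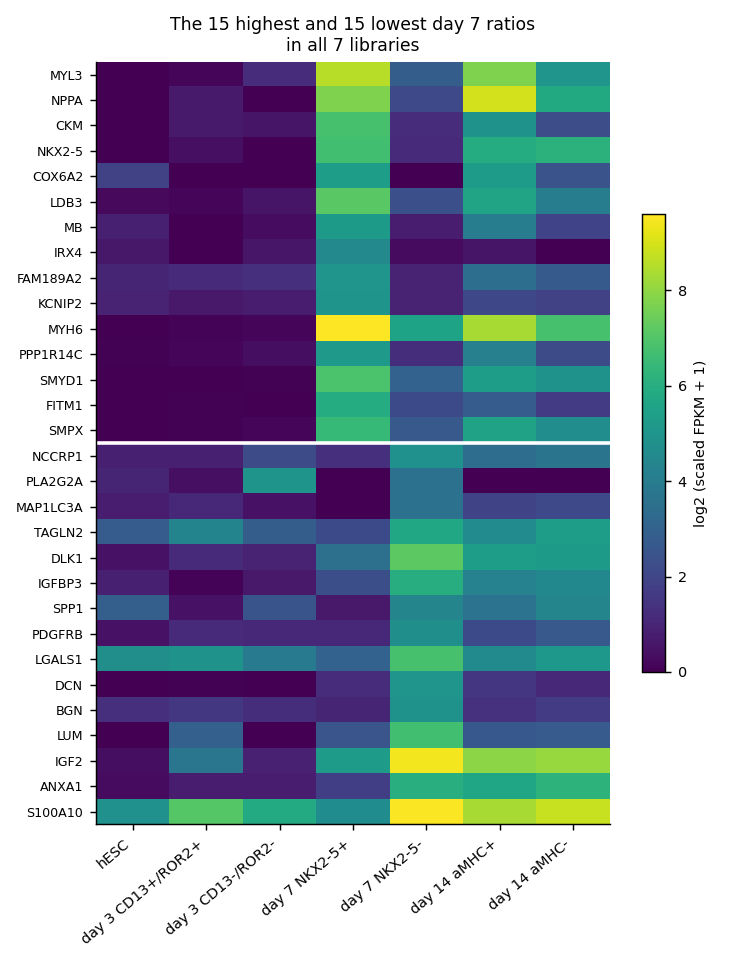
Log2 of (scaled FPKM + 1), by colour, of the 15 highest and 15 lowest day 7 ratios among genes called (rows, split by the white line) in the 7 libraries (columns). Placeholder symbols such as LOC, LINC and orf were left out. The upper genes are bright in day 7 NKX2-5+ cells, MYH6 reaching 774 scaled FPKM, and the lower genes in day 7 NKX2-5- cells, S100A10 reaching 739, with intermediate colours on day 14 for many of both.

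The day 14 pair, which shares no library with the day 7 pair, gave fewer calls. Of 5094 genes of at least 5 scaled FPKM in either day 14 library, 14 were called higher in aMHC+ than in aMHC- cells, 0.275%, and none lower. Of these 14, 11 were also higher in day 7 NKX2-5+ cells, which is 78.6% of the 14 and 7.1% of the 155. They were NPPA, MYL3, MYH7, TNNI3, CRYAB, CKM, MB, COX6A2, TRDN, PPP1R14C and PGAM2, genes of the sarcomere, of calcium release, of heart hormone and of muscle energy use. MYH6, whose reporter set the day 14 gate, was not among the 14. Each pair was sorted by the reporter of a heart gene, so the overlap is not one between unrelated gates. NPPA had 487 scaled FPKM in aMHC+ and 56.1 in aMHC- cells. CRYAB, a small heat shock protein of muscle, had 80.4 scaled FPKM in NKX2-5+ cells against 14.1 in NKX2-5- cells on day 7, and 90.1 in aMHC+ and 6.95 in aMHC- cells on day 14.

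Among genes called higher on day 7, whether called on day 14 or not, the direction was mostly kept on day 14. Of the 155, 137 had a day 14 ratio of aMHC+ over aMHC- above 0, with a median of 0.76, where 44% of all genes of at least 5 scaled FPKM were above 0 with a median of -0.04. Of the 186 called lower on day 7, 137 had a day 14 ratio below 0, with a median of -0.24. Genes as a whole leaned the same way, with 44% above 0 and a median of -0.04. Those all-gene values are for genes of at least 5 scaled FPKM on day 14, a level that 100 of the 155 and 106 of the 186 reached in aMHC+ cells. The sets compared are therefore unlike. By list, the day 14 median was 1.40 for the thick filament, 0.56 for calcium handling and 0.53 for the Z-disc. It was 0.04 for the citric acid cycle, 0.12 for complex I and -0.06 for fibroblast markers, against 1.25, 0.79 and -1.64 on day 7. Whether the day 7 and day 14 differences differ from each other was not tested, since each rests on 1 library a group.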

How the data were processed

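RNA of cells sorted 2 times was extracted and sequenced as single reads from TruSeq RNA v2 libraries, which do not mark strand, per the labels' protocols. The authors deposited 1 table of FPKM values for 23368 genes by symbol, made with Cufflinks on genome build hg19 per the submitters' processing notes. Versions, the aligner, the annotation and the treatment of reads that map to several genes were not given in the sources used here. No coordinates of hg19 are given, and the promoter windows come from RefSeq's GRCh38.p14 table, a different build.

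Of these, 106 genes with blank cells and 1683 MIR, SNOR, SCARNA, RNU and HIST symbols were left out, because MIR612 alone made up 51.6% of the deposited FPKM sum of the NKX2-5- library. Each library was divided by the median ratio to the geometric mean over 7742 genes above 1 FPKM in all 7 libraries. Ratios used a pseudocount of 1, a minimum of 5 scaled FPKM and a 4-fold limit. Folds are plain quotients of scaled FPKM. Since a listed 0 may be a failed estimate, no fold is given against one. There is 1 library in each group, so no test was run.

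The comparison and the 70 gene lists, 22 of them built from symbol patterns, were chosen with earlier results of these data known. The text names the markers, up to 4 called genes per list and direction by largest ratio (or the 2 largest ratios where fewer than 2 were called), members of lists of up to 15, and the 15 highest and lowest ratios. The last are among called genes, leaving out LOC, LINC, FLJ, KIAA, orf, antisense and similar placeholder symbols. Further genes, given as examples, were chosen after their values were seen. Some lists with few calls are given only as counts or not reported here. Some genes stand on more than 1 list. Python 3.11.15, pandas 2.3.3 and numpy 2.4.6 were used, figures were drawn with matplotlib 3.10.9, and the procedure was tested on simulated data. Alternatives were other pseudocounts, no scaling, scaling to equal sums, another or no minimum, and leaving out genes listed at 0.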

Additional observations from a re-analysis of the deposited data

How the results depend on the processing

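No paired analysis was possible because each group is 1 library, and for the same reason no replicate could be left out. The 155 genes called higher and 186 called lower became 61 and 48 with a pseudocount of 5, and 96 and 100 with a minimum of 15 FPKM. Without scaling 91 genes were called higher and 248 lower. The higher and lower counts were 195 and 248 at a pseudocount of 0.1, 168 and 177 at equal sums, 168 and 203 with no minimum, and 152 and 178 without genes listed at 0. The 11 genes shared with the day 14 pair became 4 with a pseudocount of 5. Of the 293 genes named by rule 153 were called, and none of these 153 changed direction under these alternatives, while some uncalled genes with ratios under the shift of 0.43 did without scaling. The pseudocount of 5 took 81 of the 153 below the limit, the minimum of 15 FPKM 53 and no scaling 16. Without scaling no collagen, claudin, endoderm factor, retinoic acid or ATP synthase gene was called higher, so the calls of COL2A1, COL22A1, CLDN6, PROX1, RXRG and ATP5G1 depend on it. Without scaling the medians of channel, natriuretic, GATA and splicing genes changed sign, and the medians of ribosomal and cytoskeletal genes, already below 0, moved further down. Low depth of the NKX2-5+ library limits every value near 1 FPKM there, and 47 of the genes called higher stood below 1 in NKX2-5- cells.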

Other observations

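Several genes far from equal lay outside the groups described above. FAM189A2 had 31 scaled FPKM in NKX2-5+ cells against 0.907 in NKX2-5- cells. KCNH7, a potassium channel of the ether-a-go-go family, had 28.8 scaled FPKM in NKX2-5+ cells against 1.32 in NKX2-5- cells, and FITM1, which helps muscle to form lipid droplets, 59.7 scaled FPKM in NKX2-5+ cells against 3.42 in NKX2-5- cells. The mitochondrial ADP/ATP carrier SLC25A4, which exports ATP, had 29.8 scaled FPKM in NKX2-5+ cells against 3.77 in NKX2-5- cells. Among genes lower in NKX2-5+ cells, SPP1, osteopontin, had 0.596 scaled FPKM in NKX2-5+ cells against 19.8 in NKX2-5- cells, and NCCRP1 1.48 scaled FPKM in NKX2-5+ cells against 28.2 in NKX2-5- cells. SLC7A5 and SLC7A7, carriers of large neutral and of cationic amino acids, had 4.99 against 24.6 and 0.615 against 7.41 scaled FPKM in NKX2-5+ against NKX2-5- cells. KCNMA1, the calcium-activated potassium channel of smooth muscle, had 0.348 scaled FPKM in NKX2-5+ cells against 8.47 in NKX2-5- cells. CDH11, a cadherin of mesenchyme, had 9.62 scaled FPKM in NKX2-5+ cells against 44.8 in NKX2-5- cells. The metallothionein MT2A and the autophagy gene MAP1LC3A were listed at 0 in NKX2-5+ cells and had 5.78 and 11 in NKX2-5- cells.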
